A study of Mus musculus with 4 samples.

Results

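The endothelial genes of the testis were represented by 8 genes: Pecam1, Cdh5, Kdr, Flt1, Tek, Tie1, Eng and Ly6e. They were chosen by name, and every probe set whose platform annotation names exactly 1 gene was kept where that gene is one of the 8. All 8 genes were on the array, with 11 of its 12422 non-control probe sets. Pecam1, Cdh5, Kdr, Tek and Eng had 1 probe set each, and Ly6e, Flt1 and Tie1 had a pair each.

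The RNA came from whole testis and was read on 4 Affymetrix Mouse Genome U74A version 2 arrays, all of C57BL/6J males aged 16 weeks. The groups were Tslc1+/+ (n = 2 arrays) and Tslc1-/- (n = 2 arrays), and the labels give no treatment and no other allele. Tslc1, now named Cadm1, encodes an adhesion molecule of the immunoglobulin superfamily. The labels name neither the deleted part of the gene nor the animal behind each array. The p-values therefore speak of the spread among these 4 arrays alone, and that spread may be technical.

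Endothelial cells line blood and lymph vessels. In the testis the vessels run in the interstitium between the seminiferous tubules, beside Leydig cells and macrophages, and they carry oxygen, gonadotropins and androgens. The cells are held together by VE-cadherin (Cdh5) and PECAM-1 (Pecam1). They receive growth and survival signals through the receptor tyrosine kinases for VEGF (Kdr, Flt1) and for angiopoietins (Tek, with its partner Tie1), and TGF-beta family signals through the co-receptor endoglin (Eng). Ly6e, a small GPI-anchored surface protein of the LY6 family, is induced by interferon and is also made by many cells that are not endothelial.

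Values are MAS5 signals, in which each array had been scaled to the same target, and differences are on the scale of log2(signal + 50), Tslc1-/- minus Tslc1+/+. This scale understates changes of dim probe sets. The median signal of an array lay between 361.5 and 378. On its probe set of largest change Cadm1 gave 3960 and 3925.2 for the Tslc1+/+ arrays against 443.5 and 444.9 for the Tslc1-/- arrays, and its other tested probe set differed in the same direction. Of 7975 tested probe sets, those with a mean signal of at least 200, 86 were called (limma, Benjamini-Hochberg adjusted p under 0.05), or 1.08%. Markers of germ cells identified the tissue: they summed to 432505 and 446789 on the Tslc1+/+ arrays and to 353881 and 327216 on the Tslc1-/- arrays. Of 10 tested 4 were called lower, against 0.84% of all tested probe sets, and 6 were not called. The changes were 8 negative and 2 positive. Tnp1 was among the 4, and its other probe set was at -0.02. In bulk tissue, fewer cells of a type and less RNA per cell cannot be told apart, and with equal scaling of the arrays signals are relative to the rest of the array.

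Most of the endothelial probe sets were dim. Only 5 of the 11, standing for Pecam1, Ly6e, Kdr and Eng, reached a mean signal of 200, and the other 6 (Cdh5, Tek and both probe sets of Flt1 and of Tie1) did not. The single signals of those 6 ran from 22.7 to 346.7, all below the median signal of their arrays, so these defining endothelial transcripts were read near the lower end of the array, and their absence is not shown by that. Just inside the limit lay Kdr, with a mean of 336.2 over the 4 arrays, and just outside it lay the brighter Flt1 probe set, with 181.7. Among the 5 tested, 1 was called higher in Tslc1-/- (Ly6e), against a background of 0.238% called higher among all tested probe sets. None was called lower, against a background of 0.84% (limma), although 1, that of Pecam1, had an unadjusted p under 0.05 in that direction, as had 799 of all 7975 in either direction. The genotypes did not overlap on 3 of the 5, with 1 higher and 2 lower. Of all tested probe sets 40.0% did not overlap, 21.5% higher and 18.5% lower, so the members' share is over few probe sets and is not a result about them. Over the 4 tested genes, each taken at its brightest probe set, 2 changes were positive and 2 negative. Their median was -0.51, and the median over all tested probe sets was 0.02. These 4 changes ran from -1.92 to 0.86, so the median describes no common shift, and it was 0.49 over the 2 genes with a mean signal of at least 500.

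**Figure D1:**
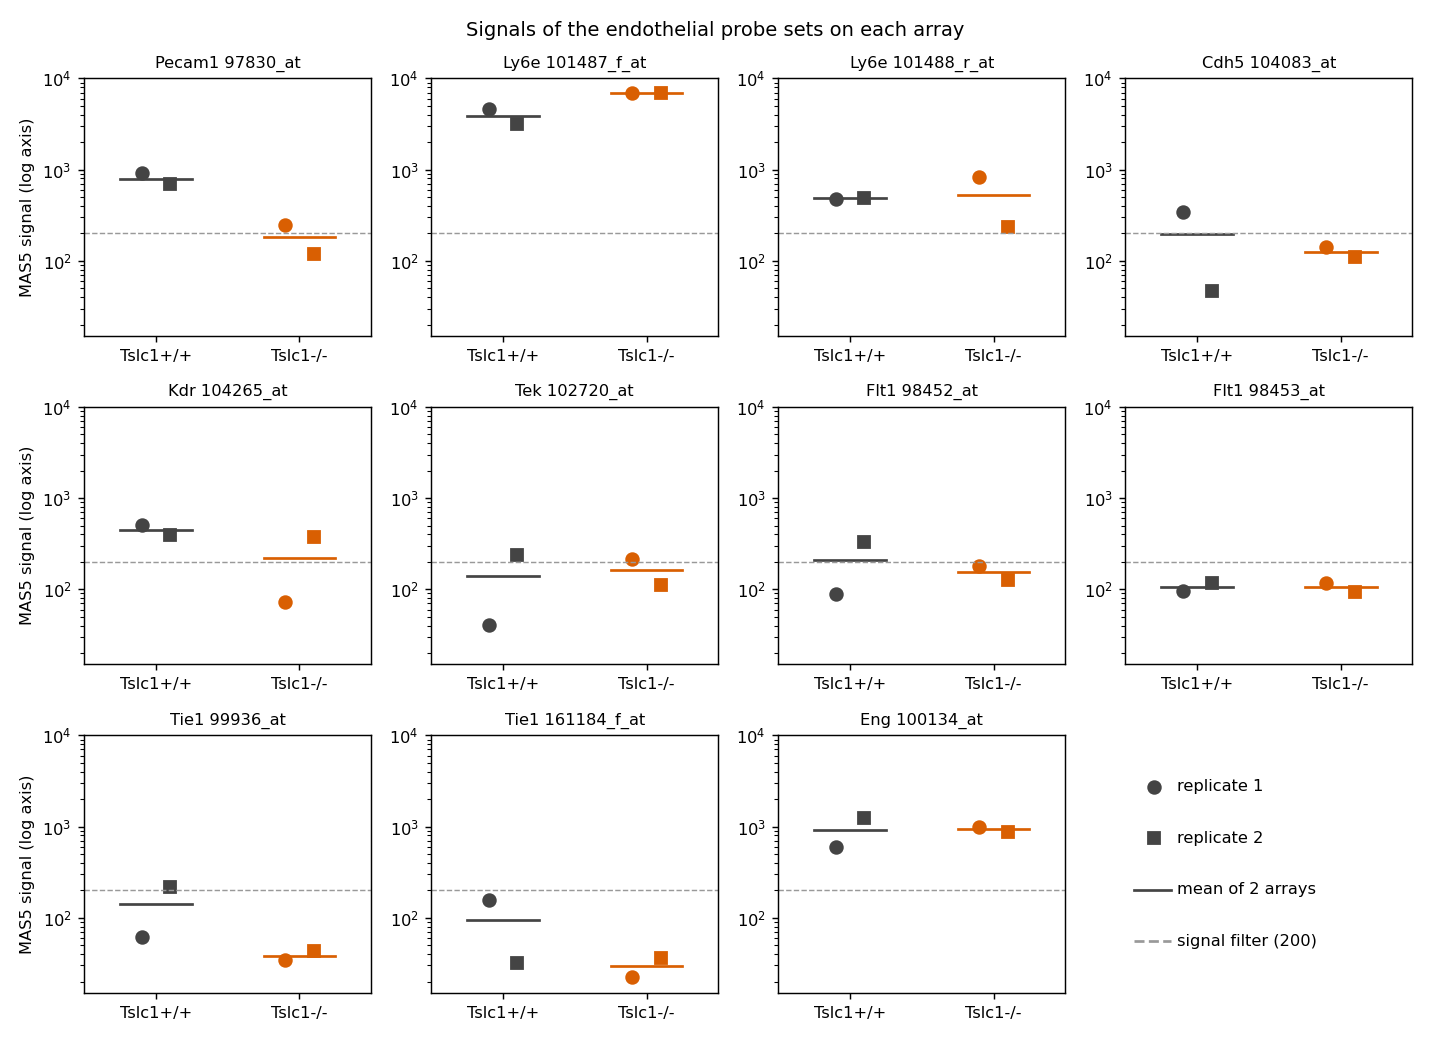
MAS5 signal (log axis) of each of the 11 endothelial probe sets by genotype; circles are replicate 1, squares replicate 2, bars the mean of 2 arrays, and the dashed line the signal limit of 200. The Tslc1-/- arrays lie below both Tslc1+/+ arrays for Pecam1 and above both for the bright Ly6e probe set, while Cdh5, Tek, Flt1 and Tie1 lie mostly below the limit.

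Ly6e gave the one called difference. On its bright probe set (101487_f_at) the signals were 4567.8 and 3143.1 in Tslc1+/+ and 6853 and 6991.3 in Tslc1-/-. Both Tslc1-/- arrays were above both Tslc1+/+ arrays, and the spread was wider in Tslc1+/+ (3855 ± 1007, SD, n = 2) than in Tslc1-/- (6922 ± 97.8, SD, n = 2). The signal rose 1.82-fold, or by 0.86 ± 0.16 (standard error) in log2 terms, with a 95% interval from 0.50 to 1.22 (limma, Benjamini-Hochberg adjusted p = 0.0343). Against the Tslc1+/+ mean, the Tslc1-/- arrays stood 0.85 and 0.87 higher on the log2 scale. The difference between the Tslc1+/+ arrays themselves was 0.53.

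The other Ly6e probe set (101488_r_at) was not called. Its signals were 474.3 and 494.5 in Tslc1+/+ and 826.5 and 234.4 in Tslc1-/-, so the Tslc1-/- arrays lay on either side of the Tslc1+/+ pair. The log2 change was -0.10, with an interval from -1.16 to 0.97 (limma, adjusted p = 0.969). The interval holds the 0.86 of the bright probe set and also 0. Both Ly6e probe sets carry a suffix by which the array's maker marks probe sets that may cross-hybridise or did not meet all design rules.

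The Ly6e call depended on single arrays and on the fit. With Tslc1+/+ replicate 1 left out the log2 change was 1.13 (limma, adjusted p = 0.0103). The call was lost without Tslc1+/+ replicate 2, where the change was 0.59 (adjusted p = 0.153), without Tslc1-/- replicate 1 (adjusted p = 0.232) and without Tslc1-/- replicate 2 (limma, adjusted p = 0.25). It was also lost with all 12422 probe sets tested (adjusted p = 0.0981) and with a spread that ignored signal intensity (limma, adjusted p = 0.545). The direction was positive in each of these fits. With equal array medians the change was 0.84 and with quantile normalization 0.87, and both were called (limma, adjusted p = 0.0433 and 0.0471).

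Lists of genes related to Ly6e were read in the same fit. Of 12 LY6 family genes 7 were on the array and 4 tested, and none was called (limma; 1 had an unadjusted p under 0.05, in the lower direction), with a median change of 0.19. The one of smallest p and highest signal was Cd59a, an inhibitor of complement attack, at 1180 ± 106 and 665.9 ± 182 (SD, n = 2). The log2 difference was -0.80 (limma, adjusted p = 0.235). Of 23 interferon-induced genes 19 were on the array but only 4 were tested, and none was called (limma; 1 had an unadjusted p under 0.05, in the higher direction), with a median of 0.43. The one of smallest p was the interferon signalling factor Irf9, at 82.9 ± 25.9 and 372.5 ± 53.6 (SD, n = 2). The fitted change was 1.68 (limma, adjusted p = 0.445). It reached the limit of 200 only through the Tslc1-/- arrays, so its change, and with it the list's median over so few genes, follow in part from that limit. The brightest was the regulator Irf7, at 0.13 (adjusted p = 0.953).

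Pecam1 had the largest fitted difference of the 8 genes, and it was not called. PECAM-1 is an immunoglobulin-family adhesion molecule of endothelial junctions that is also carried by platelets and leukocytes. Its signals were 911 and 687.5 in Tslc1+/+ and 244.8 and 117.4 in Tslc1-/-. Both Tslc1-/- arrays were below both Tslc1+/+ arrays, and the gap between the genotypes was wider than the difference within either. The means were 799.2 ± 158 and 181.1 ± 90.1 (SD, n = 2). The difference was -1.92 ± 0.42 (standard error) in log2 terms, or 3.79-fold lower, with a 95% interval from -2.85 to -0.99. It missed the threshold over all tested probe sets (limma, unadjusted p = 9.49e-04, Benjamini-Hochberg adjusted p = 0.0694). It reached the limit of 200 only through the Tslc1+/+ arrays, since its Tslc1-/- mean was below that limit. The Tslc1-/- arrays stood at -1.51 and -2.33 against the Tslc1+/+ mean.

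The Pecam1 difference was called in 2 of 12 alternative fits. It passed when the probe sets with a suffix were left out, which tests fewer probe sets (limma, adjusted p = 0.0469). It also passed with the replicate number as a block (limma, adjusted p = 0.00751), a number that the labels do not give as a pairing. Leaving out any 1 array kept it above the threshold, and the change ran from -2.33 to -1.51 (limma, adjusted p = 0.0968 to 0.395). The adjusted p was 0.451 with a spread that ignored signal intensity and 0.204 with all 12422 probe sets tested (limma). Its mean signal of 490.2 put it below the limit of 500, so it was not tested there.

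Markers of the other cells that carry PECAM-1 stood as follows. Platelet markers, 5 of 7 on the array, summed to 1369 and 1324 in Tslc1+/+ and to 885.2 and 967 in Tslc1-/-. This sum was lower in Tslc1-/- without overlap. The sums of the mural, Leydig and germ cell markers were also lower without overlap. Those of the erythrocyte and Sertoli cell markers were higher without overlap, so a sum without overlap is not particular to platelet markers. Of the 2 tested platelet markers, Gp9 and Gp1bb, neither was called (limma, none with an unadjusted p under 0.05). Their changes were -0.23 and 0.01, with overlapping genotypes. Below the limit lay Pf4, at 213.4 and 224.1 against 38.1 and 140.7, and Itgb3, at 154.2 and 163.6 against 47.3 and 38.2. Neither was called in the fit over all probe sets (limma, adjusted p = 0.702 and 0.558). Gp5, also below it, overlapped on its brighter probe set and was higher in Tslc1-/- without overlap on its dimmer one. Macrophage and leukocyte markers, all 11 on the array, summed to 4084 and 3533 in Tslc1+/+ and to 5139 and 3854 in Tslc1-/-, with overlapping genotypes. Of 5 tested none was called (limma, 2 with an unadjusted p under 0.05, 1 in each direction). Gene by gene the genotypes did not overlap on any of these 5, with 4 higher in Tslc1-/- and 1, Csf1r, lower. Among all tested probe sets 40.0% did not overlap. The median change of the 5 was 0.26. No marker was listed at 0. The part of these cells in the Pecam1 and Ly6e values was not tested.

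Cdh5, the cadherin that defines endothelial junctions, was below the signal limit. Its signals were 346.7 and 47 in Tslc1+/+ and 140.3 and 109.8 in Tslc1-/-. The Tslc1-/- arrays lay between the Tslc1+/+ arrays, which themselves differed by 2.03 on the log2 scale. In a fit over all probe sets the change was -0.17, with an interval from -1.85 to 1.51 (limma, adjusted p = 0.975). That interval is wide enough to hold both the 0.86 of the bright Ly6e probe set and the -1.13 fitted for Kdr.

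More of the partners of the junction proteins passed the signal limit. Of 16 listed genes 12 were on the array and 10 tested, 4 with a positive and 6 with a negative change, and none was called (limma; none had an unadjusted p under 0.05). Their median was -0.07. Ctnnd1, the p120 catenin that stabilises cadherins at the membrane, had the highest signal, with 4089 ± 21.3 and 4030 ± 436 (SD, n = 2). In log2 terms this was a difference of -0.02 (95% interval -0.31 to 0.26; limma, adjusted p = 0.97). Jup, plakoglobin, which links VE-cadherin to the cytoskeleton, had the smallest p, with a change of 0.63 (limma, adjusted p = 0.583). Catenins are made by many cells of the testis, so these signals are not particular to vessels.

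**Figure D2:**
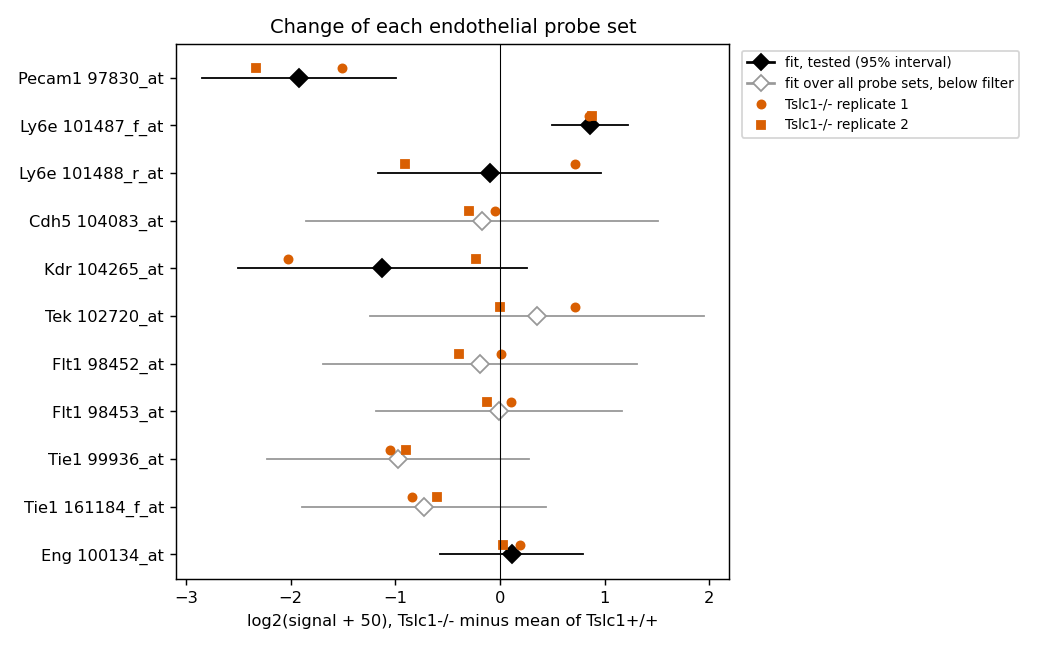
Change of each endothelial probe set on the log2(signal + 50) scale; diamonds are the fitted change with its 95% interval (filled, tested; open, from the fit over all probe sets for those below the signal limit), and small orange points are each Tslc1-/- array against the Tslc1+/+ mean. Pecam1 and the bright Ly6e probe set have intervals that leave out 0, and the intervals of the other 9 include it.

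Kdr, the main signalling receptor for VEGF-A on endothelial cells, had signals of 508.9 and 390.6 in Tslc1+/+ and of 72 and 373.4 in Tslc1-/-. The genotypes did not overlap, but the higher Tslc1-/- array was close to the lower Tslc1+/+ array, and the low mean came from Tslc1-/- replicate 1. The means were 449.8 ± 83.7 and 222.7 ± 213 (SD, n = 2). On the log2 scale the difference was -1.13 (95% interval -2.51 to 0.25; limma, adjusted p = 0.61). Against the Tslc1+/+ mean the Tslc1-/- arrays stood at -2.02 and -0.23. Without Tslc1-/- replicate 1 the change was -0.23, and without Tslc1-/- replicate 2 it was -2.02.

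Flt1, the receptor that also binds VEGF-A and acts largely as a trap for it, was dim on both probe sets. On 98452_at it had signals of 89.2 and 330.5 in Tslc1+/+ and of 182.1 and 125 in Tslc1-/-, with overlapping genotypes and a change of -0.19 (interval -1.70 to 1.31). On 98453_at it had signals of 95.2 and 117.1 in Tslc1+/+ and of 117.7 and 92.6 in Tslc1-/-, a change of -0.01 (interval -1.19 to 1.17). The probe sets disagreed on the Tslc1+/+ arrays, where the first had a difference of -1.45 on the log2 scale between replicate 1 and replicate 2 and the second one of -0.20. Neither passed (limma, over all probe sets, adjusted p = 0.967 and 0.998).

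Ligands and co-receptors of VEGF were read beside these receptors. Of 11 listed genes 9 were on the array and 5 tested, and none was called (limma; none had an unadjusted p under 0.05), with 3 positive and 2 negative changes and a median of 0.14. The brightest was the ligand Vegfb, at 972.0 ± 52.8 and 1111 ± 416 (SD, n = 2). The log2 difference was 0.14 (limma, adjusted p = 0.908). The one of smallest p was Plcg1, the phospholipase that the VEGF receptor activates, at 0.49 (limma, adjusted p = 0.592).

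Tek, the angiopoietin receptor TIE2, had signals of 40.2 and 239.5 in Tslc1+/+ and of 214.9 and 111.3 in Tslc1-/-. The Tslc1+/+ arrays enclosed both Tslc1-/- arrays, and the change over all probe sets was 0.36 with an interval from -1.24 to 1.95 (limma, adjusted p = 0.933). Tie1, the receptor that modulates TIE2, had a pair of probe sets.

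On 99936_at Tie1 had 61.6 and 219.8 in Tslc1+/+ and 34 and 42.9 in Tslc1-/-, a change of -0.97 (interval -2.22 to 0.28). On 161184_f_at it had 158.2 and 31.9 in Tslc1+/+ and 22.7 and 35.8 in Tslc1-/-, a change of -0.73 (interval -1.89 to 0.44). The genotypes did not overlap on the first of these and overlapped on the second. Both changes were negative, but the probe sets put the Tslc1+/+ arrays in opposite order: replicate 2 was the high one on the first and replicate 1 on the second. Neither passed (limma, over all probe sets, adjusted p = 0.697 and 0.766). With 1 array left out, each change came closest to 0 without its higher Tslc1+/+ array: without replicate 2 it was -0.34 on the first, and without replicate 1 it was -0.05 on the second.

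Of 8 listed genes of the angiopoietin axis 5 were on the array and only 2 tested, with changes of 0.39 and -0.03 and none called (limma; none had an unadjusted p under 0.05). Dok2, an adaptor that binds activated TIE2 and is abundant in blood cells, had the smallest p and the highest signal among those tested (limma, adjusted p = 0.852). Angpt2, an angiopoietin that binds TIE2, was below the limit and was picked here after its values were seen. Its signals were 15 and 9.2 in Tslc1+/+ and 193.4 and 252.8 in Tslc1-/-, with both Tslc1-/- arrays above both Tslc1+/+ arrays. In the fit over all probe sets the change was 2.13, with an interval from 1.06 to 3.20, and it was not called (limma, unadjusted p = 0.00168, adjusted p = 0.169). The other genes of this axis below the limit, Ptprb and Bmx, went the other way, also without overlap. Ptprb had 45.5 and 111.9 in Tslc1+/+ and 26.4 and 20.5 in Tslc1-/-, a change of -0.76. Bmx had 216.3 and 102.1 in Tslc1+/+ and 38.4 and 79.6 in Tslc1-/-, a change of -0.91. Neither was called (limma, adjusted p = 0.688 and 0.727).

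Eng encodes endoglin, which binds TGF-beta family ligands together with their signalling receptors. It had signals of 599.6 and 1228.1 in Tslc1+/+ and of 992.2 and 879 in Tslc1-/-. The Tslc1-/- arrays lay between the Tslc1+/+ arrays. The means were 913.9 ± 444 and 935.6 ± 80.0 (SD, n = 2). The fitted change was 0.11 (95% interval -0.57 to 0.79; limma, adjusted p = 0.942). The interval leaves out a fall as large as that fitted for Pecam1. Without Tslc1+/+ replicate 1 the change was -0.38, and without Tslc1+/+ replicate 2 it was 0.60.

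Of 22 listed TGF-beta and BMP genes around endoglin 20 were on the array and 11 tested. None was called (limma; 1 had an unadjusted p under 0.05, in the lower direction), 5 changes were positive and 6 negative, and the median was -0.10. Smad6, which inhibits BMP signalling, had both the smallest p and the highest signal, at 2940 ± 352 and 2075 ± 0.566 (SD, n = 2). Its log2 change was -0.49, with an interval from -0.82 to -0.15 (limma, adjusted p = 0.232).

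Of the 8 genes, 5 had a promoter of 300 bases around the start in the RefSeq sequences used here (build GRCm38.p6). Those of Kdr and Eng are shown because they are the tested members among them, each 5′ to 3′ on the gene's strand, with every GGAA, on either strand (so also TTCC), in capitals. GGAA is the core that ETS transcription factors such as ERG, FLI1 and ETS1 recognise, and these factors act at many endothelial genes.
Kdr, chr5:75978406-75978705, minus strand: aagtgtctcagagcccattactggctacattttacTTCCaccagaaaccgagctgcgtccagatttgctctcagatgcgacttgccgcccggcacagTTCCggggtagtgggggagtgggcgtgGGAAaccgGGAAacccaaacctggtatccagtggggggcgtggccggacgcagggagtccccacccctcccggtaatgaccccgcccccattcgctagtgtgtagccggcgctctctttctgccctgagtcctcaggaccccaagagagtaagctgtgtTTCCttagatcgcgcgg
Eng, chr2:32646345-32646644, plus strand: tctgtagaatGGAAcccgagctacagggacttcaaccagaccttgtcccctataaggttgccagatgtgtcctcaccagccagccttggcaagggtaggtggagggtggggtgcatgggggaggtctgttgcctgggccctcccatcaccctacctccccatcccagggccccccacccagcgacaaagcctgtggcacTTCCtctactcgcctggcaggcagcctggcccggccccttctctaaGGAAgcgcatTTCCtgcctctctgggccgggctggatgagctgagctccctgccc
The core occurred 5 times in the Kdr promoter and 4 times in that of Eng, counting overlapping matches. It occurred 2 times in Tek, 4 times in Flt1 and 9 times in Tie1. Among 32851 RefSeq promoters of this length, 96.0% held it at least once, with a median of 3 matches, so its presence is no property of these genes. A match is a description of the letters and not a binding site.

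The transcription factors that act in endothelium were read in the same fit. Of 21 listed 18 were on the array and 12 tested, 7 with a positive and 5 with a negative change, and none was called (limma; 1 had an unadjusted p under 0.05, in the higher direction). The median was 0.23. Sox18, a SOX factor of vessel and lymphatic development, had the smallest p, at 359.2 ± 17.7 and 735.6 ± 90.2 (SD, n = 2). In log2 terms this was a difference of 0.94 (limma, adjusted p = 0.258), and its second probe set was at 0.31. Klf4, a factor of many cell types that is abundant in spermatids, was the brightest, at 4838 ± 34.3 and 4699 ± 197 (SD, n = 2). On the log2 scale the difference was -0.04 (limma, adjusted p = 0.941).

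Other endothelial transcripts gave no common direction. Of 34 listed 25 were on the array and 11 tested, 6 with a positive and 5 with a negative change and a median of 0.04, and none was called (limma; 2 had an unadjusted p under 0.05, both in the higher direction). Cav1, the coat protein of caveolae, had the smallest p, at 231.4 ± 159 and 584.5 ± 15.2 (SD, n = 2). The log2 difference was 1.30 (limma, adjusted p = 0.356), with its other probe set at 0.47. Ace, angiotensin-converting enzyme, was the brightest, at 1443 ± 6.15 and 1120 ± 23.2 (SD, n = 2). The fitted change was -0.35 (limma, adjusted p = 0.58). Its other probe sets were at -0.07 and -0.22. Germ cells make a form of Ace of their own, so this signal is not that of vessels alone.

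Of 8 genes by which endothelium binds leukocytes, all 8 were on the array and 3 tested, with a median of 0.42. None was called (limma, 1 with an unadjusted p under 0.05, in the higher direction). Cd34, at 1.22, had signals of 60.6 and 146.1 in Tslc1+/+ and of 147.4 and 548.9 in Tslc1-/-. It reached the signal limit only through Tslc1-/- replicate 2. The change on this probe set, and with it the median over so few genes, follow in part from that limit. The other Cd34 probe set, below the limit, had 210.7 and 38.6 in Tslc1+/+ and 240.1 and 264 in Tslc1-/-. It had a change of 0.99, without overlap, and was not called (limma, over all probe sets, adjusted p = 0.757). Madcam1 had the opposite sign, at -0.35. Vcam1, a ligand for leukocyte integrins, was the brightest and had the smallest p, at 1765 ± 108 and 2390 ± 251 (SD, n = 2). In log2 terms this was a difference of 0.42 (limma, adjusted p = 0.375). Its other probe sets, at 0.55 and 0.58, had the same sign, and that at 0.58 had a smaller p (limma, adjusted p = 0.181). The genotypes did not overlap on any Vcam1 probe set.

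**Figure D3:**
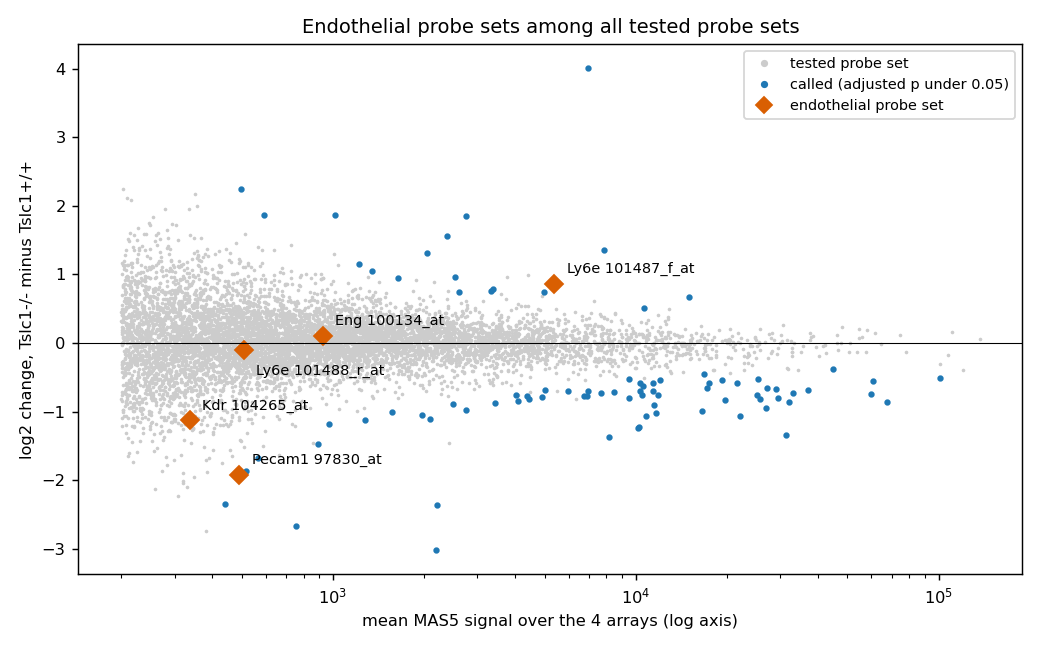
Log2 change of every tested probe set (grey; called ones blue) against its mean signal over the 4 arrays (log axis), with the 5 tested endothelial probe sets as orange diamonds. The bright Ly6e probe set is among the called ones at a mean signal of 5389, and Pecam1, at 490.2, is not.

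Over the 9 pathway lists together, 123 of 155 distinct genes were on the array and 62 were tested. None was called (limma; 7 had an unadjusted p under 0.05, 5 higher and 2 lower). The genotypes did not overlap for 37.1% of these genes, close to the 40.0% of all tested probe sets, and their median change was 0.06. Over the marker lists together, 64 of 77 distinct genes were on the array and 46 were tested. The genotypes did not overlap for 52.2% of these. Of the 46, 4 were called lower, all germ cell markers, against 0.84% of all tested probe sets. An unadjusted p under 0.05 was found for 12, 3 higher and 9 lower (limma). Within a genotype, the SD of log2(signal + 50) had a median of 0.38 for mean signals up to 100, where both Tie1 probe sets lay and where the added 50 narrows differences. It was 0.62 from 100 to 200, where Cdh5, Tek and Flt1 lay, 0.43 from 200 to 500, where Pecam1 and Kdr lay, and 0.08 above 5000, where the bright Ly6e probe set lay.

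**Figure D4:**
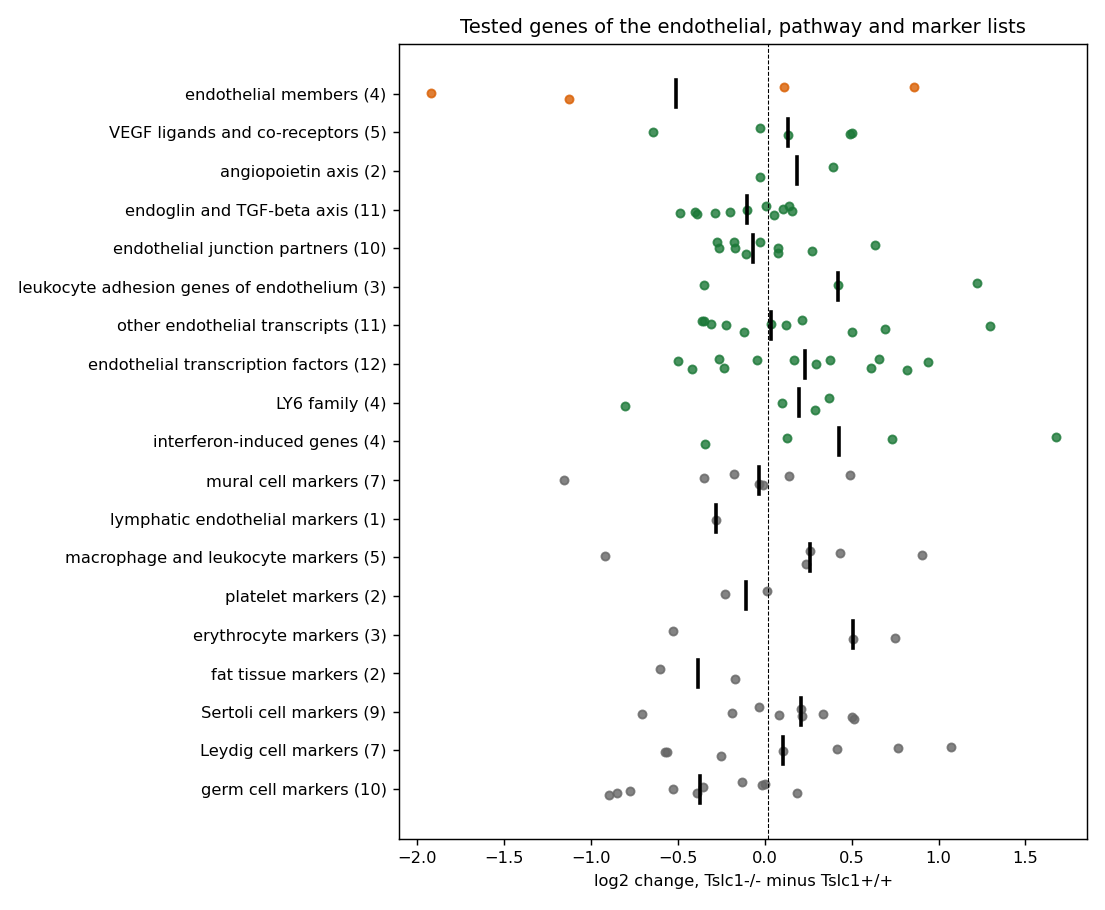
Log2 change of each tested gene (1 point, its brightest probe set) in the endothelial members (orange), the pathway lists (green) and the marker lists (grey), with the number of tested genes in brackets, a black bar at the list median and a dashed line at the median of all tested probe sets. The members run from -1.92 to 0.86, and the germ cell markers have a median of -0.37.

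Markers of other cells of the interstitium and vessel wall are given for the same arrays. Mural cell markers, 8 of 9 on the array, summed to 4728 and 4820 in Tslc1+/+ and to 4522 and 4718 in Tslc1-/-, without overlap. None of the 7 tested was called (limma, none with an unadjusted p under 0.05). The changes were 2 positive and 5 negative, with a median of -0.03. The smooth muscle actin gene Acta2 was at 0.14. The smooth muscle calponin gene Cnn1 had the change farthest from 0 in this list, at -1.15 (limma, adjusted p = 0.61). Its means were 338.1 ± 85.6 in Tslc1+/+ and 123.2 ± 24.3 in Tslc1-/- (SD, n = 2), without overlap by array. Cnn1 reached the signal limit only through the Tslc1+/+ arrays, so its change follows in part from that limit. Lymphatic markers were dim, with 1 of 4 on the array tested, Prox1, at -0.28, and summed signals of 1007 and 383.4 in Tslc1+/+ and 593.3 and 647 in Tslc1-/-. Erythrocyte markers, 4 of 8 on the array, summed to 2136 and 2527 in Tslc1+/+ and to 2889 and 2787 in Tslc1-/-, the genotypes not overlapping. Of the 3 tested none was called (limma; 2 had an unadjusted p under 0.05, 1 in each direction), and the alpha-globin transcript Hba-a1 had a change of 0.75 (limma, adjusted p = 0.144). Alas2, the haem synthesis enzyme of red cell precursors, had the opposite sign at -0.53, with 966.2 and 1036.9 in Tslc1+/+ and 627.4 and 736.8 in Tslc1-/- (limma, adjusted p = 0.475). Leydig cell markers, 7 of 8 on the array, summed to 7721 and 7835 in Tslc1+/+ and to 6147 and 6855 in Tslc1-/-, also without overlap. Of 7 tested none was called (limma, 2 with an unadjusted p under 0.05, 1 in each direction). Their changes were 4 positive and 3 negative, with a median of 0.10. The brightest, Cyp17a1, had means of 4951 in Tslc1+/+ and 3325 in Tslc1-/-, and its fall weighs most in the sum. Hsd3b6 had the opposite sign, at 1.07 (limma, adjusted p = 0.173). Sertoli cell markers, 9 of 11 on the array, summed to 27629 and 27411 in Tslc1+/+ and to 28976 and 27804 in Tslc1-/-, without overlap. The 2 tested fat tissue markers had a median of -0.38. None of either list was called (limma, none with an unadjusted p under 0.05). The part of blood content or of the makeup of the tissue in the endothelial values was not tested.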

How the data were processed

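The authors, per the labels' protocols, primed 3 micrograms of RNA with oligo(dT), made biotin-labelled cRNA and computed MAS5 signals scaled to a target of 1000. The deposited file gives the intensity of each probe set, not in logs, with 1 array per sample. The trimmed mean was 1001 on each array. Neither detection calls nor single probes entered.

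Names came from the platform annotation, and 10817 of 10833 single-gene probe sets were matched to RefSeq symbols by Entrez identifier. The build behind the platform annotation is not given in the sources used here, and GRCm38.p6 is that of the RefSeq promoters alone. The test was limma 3.58.1 in R 4.3.3 with an intensity trend, two-sided, on log2(signal + 50), over non-control probe sets with a mean signal of at least 200, Benjamini-Hochberg adjusted over all 7975 and called below 0.05. Members below that limit were read from the same fit over all 12422. The fit was also run on data simulated from its own fitted spread, with known changes added. Because the simulated spread came from the fit, that run cannot test whether the intensity trend holds for these arrays. Precision is limited by the number of arrays: permuting 2 against 2 gives a two-sided p of at least 0.333, and this was not run. In list summaries a gene stands for its brightest probe set. A listed gene counts as on the array only where a probe set names it alone. The 396 non-control probe sets that name several genes were left out of the lists. Named in each pathway list are its gene of smallest p, its brightest gene and any called gene. Other pathway and marker genes were picked for the text with their values known. The members and lists were chosen with earlier results of these data known.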

Additional observations from a re-analysis of the deposited data

How the results depend on the processing

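The same-numbered arrays did not vary together (r = -0.0012 across 7975 probe sets between their deviations from the genotype means). The labels do not say whether the number pairs arrays. The correlation is over all probe sets together and does not speak of a pairing in some of them. With the replicate block 239 probe sets were called in place of 86, and 1 member in each direction, Ly6e and Pecam1. Without the intensity trend 0 were called (limma, 638 at an unadjusted p under 0.05) and 0 members. The count over all probe sets was 37 to 43 with 1 array left out, and that of members called higher 0 to 1. The member called higher was also lost (0) with all probe sets tested and with plain probe sets only, where its probe set was not tested. With plain probe sets only, 1 member was called lower, Pecam1. Calls of members were as reported with a pseudocount of 16 or 200, quantile normalization, equal array medians and a mean signal of at least 500.

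With 1 array left out the sign changed for 6 uncalled probe sets. The ranges were -0.91 to 0.71 for the dim Ly6e probe set, -1.19 to 0.85 for Cdh5, -0.49 to 1.20 for Tek, -0.92 to 0.53 and -0.13 to 0.11 for Flt1, and -0.38 to 0.60 for Eng. In such a fit a genotype with 1 array is assumed to vary like the other. Of the 11 probe sets 6 were below the signal limit.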
